A study of Mus musculus with 6 samples.

Results

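The E2F factors and the retinoblastoma family were described here in 4T1 cells, a mouse mammary carcinoma line. Members were taken by gene symbol from the deposited expression table: E2f1, E2f2, E2f3, E2f4, E2f6, E2f7 and E2f8 of the E2F factors, and Rb1, Rbl1 and Rbl2 of the retinoblastoma family. All 10 symbols were found among 22105 features with a gene identifier, and all 10 were among the 10863 genes tested. E2f5 was not among the members, so every E2F count, order, share and sum below covers these 7 E2F genes alone. One group of 3 libraries came from 4T1 cells exposed to particles named CM-PEG-PLGA@DOX/R848, dosed to 2 µg/mL of doxorubicin, and the other 3 libraries came from 4T1 cells given phosphate-buffered saline (PBS), both for 24 h. DOX is doxorubicin, a topoisomerase II poison, and R848 is resiquimod, an agonist of the endosomal receptors TLR7 and TLR8. Free drugs and unloaded particles were not analysed here, so the parts of the particle cannot be told apart. All libraries came from the same cell line, and the labels do not state whether the 3 samples of each group were separate cultures, so p-values cover the spread among these samples alone, which may be technical.

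E2F factors are DNA-binding proteins that set the transcription of genes for entry into S phase. E2F1, E2F2 and E2F3 are known as activators, E2F4 as a factor that represses together with the pocket proteins, and E2F6, E2F7 and E2F8 as repressors that work without them. The pocket proteins RB (Rb1), p107 (Rbl1) and p130 (Rbl2) bind the activation region of E2F factors in resting and early G1 cells, and cyclin-dependent kinases release the E2F factors by phosphorylating the pocket proteins. Phosphorylation and binding are not measured by mRNA sequencing.

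In nanoparticle-treated cells 5 of the 7 E2F mRNAs rose and 2 fell, while all 3 retinoblastoma family mRNAs fell. The largest rise was that of E2f7, which averaged 8.9 ± 0.572 FPKM with nanoparticles and 3.89 ± 0.159 FPKM with PBS, and the largest fall was that of Rbl2, which averaged 3.7 ± 0.189 FPKM with nanoparticles and 10.7 ± 0.203 FPKM with PBS (mean ± SD, n = 3 each). FPKM divides the fragments of a gene by its transcript length and by the total mapped. The unit was inferred from the values, and comparisons of levels between genes rest on that inference. Changes were tested with limma on log2(FPKM + 1) and called at a Benjamini-Hochberg adjusted p under 0.05 over all tested genes. On that scale a fold change understates the change of low genes. These counts stand against a wide background: 40.5% of all tested genes were called higher, 46.0% were called lower and 86.4% were called in either direction. The libraries of the groups did not overlap for any of the 10 members, nor for 87.2% of all tested genes, so a call alone does not set these genes apart.

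The check of the cell type used 5 epithelial markers. Krt8 averaged 343 ± 0.924 FPKM with nanoparticles and 215 ± 2.58 FPKM with PBS, and Krt18 averaged 685 ± 22.7 FPKM with nanoparticles and 514 ± 6.33 FPKM with PBS (n = 3 each). Cdh1, the epithelial cadherin, averaged 22.7 FPKM with nanoparticles and 18.9 FPKM with PBS, and Krt19 averaged 1.92 FPKM with nanoparticles and 1.2 FPKM with PBS. Epcam was at 0.639 FPKM with nanoparticles and 0.551 FPKM with PBS, under 1 FPKM in both groups. The summed level of 6 haematopoietic markers was 1.89 to 2.89 FPKM in nanoparticle libraries and 0.0676 to 0.165 FPKM in PBS libraries. Csf1r carried the nanoparticle sum, at 1.45 FPKM with nanoparticles and 0.0416 FPKM with PBS. It was the only marker of this list to reach 1 FPKM, in nanoparticle libraries alone. Ptprc, the pan-leukocyte gene, averaged 0.527 FPKM with nanoparticles and was listed at 0 in every PBS library. The sum of 3 endothelial markers was 1.81 to 2.1 FPKM with nanoparticles and 8.36 to 8.54 FPKM with PBS. Cdh5 carried that sum, at 1.54 FPKM with nanoparticles and 8.42 FPKM with PBS, while Pecam1 averaged 0.362 FPKM with nanoparticles and 0.0503 FPKM with PBS, and Kdr averaged 0.0875 FPKM with nanoparticles and was listed at 0 in every PBS library. The sum of 4 fibroblast markers was 7.51 to 9.08 FPKM with nanoparticles and 32.7 to 33 FPKM with PBS. It was carried by Pdgfra, at 4.76 FPKM with nanoparticles and 20.5 FPKM with PBS, and Pdgfrb, at 2.9 FPKM with nanoparticles and 12 FPKM with PBS. The collagen genes Col1a1 (0.415 FPKM with nanoparticles, 0.265 FPKM with PBS) and Col1a2 (0.194 FPKM with nanoparticles, 0.0042 FPKM with PBS) were under 1 FPKM in both groups. The part of these markers in the results below was not tested. Between 10596 and 10631 genes reached 1 FPKM in each of the 6 libraries. Genes above 0 numbered 18319 to 18509 in nanoparticle libraries and 13544 to 13808 in PBS libraries. In bulk RNA, fewer cells of a type and less RNA per cell cannot be told apart.

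Promoter sequences are shown for the 3 members with an 8-base match to E2F letters upstream of the RefSeq start of transcription. They include the largest riser, E2f7, and a pair of genes that fell, Rbl1 and E2f3. The windows are from RefSeq on GRCm38.p6, and 8 of the 10 members had an entry. Each run gives the 250 bases before the annotated start, 5′ to 3′ on the strand of the gene, with the match in capitals.
E2f7, chr10:110745189-110745438, plus strand: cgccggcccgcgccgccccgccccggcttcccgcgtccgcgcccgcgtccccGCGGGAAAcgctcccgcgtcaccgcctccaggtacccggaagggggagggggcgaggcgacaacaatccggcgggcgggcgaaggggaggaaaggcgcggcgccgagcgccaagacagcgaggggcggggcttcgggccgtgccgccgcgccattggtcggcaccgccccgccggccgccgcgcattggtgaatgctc
Rbl1, chr2:157204535-157204784, minus strand: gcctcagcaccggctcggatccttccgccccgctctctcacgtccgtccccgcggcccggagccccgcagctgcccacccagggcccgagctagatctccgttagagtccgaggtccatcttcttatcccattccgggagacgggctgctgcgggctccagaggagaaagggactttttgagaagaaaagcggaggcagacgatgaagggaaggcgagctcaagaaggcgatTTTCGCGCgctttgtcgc
E2f3, chr13:29986064-29986313, minus strand: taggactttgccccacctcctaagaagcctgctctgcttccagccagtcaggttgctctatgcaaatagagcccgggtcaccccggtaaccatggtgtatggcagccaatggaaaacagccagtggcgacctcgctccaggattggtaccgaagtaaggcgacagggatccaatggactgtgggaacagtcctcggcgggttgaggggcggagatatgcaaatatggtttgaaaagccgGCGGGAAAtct

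The letters searched were TTTCCCGC, TTTGGCGC, TTTCGCGC and TTTGCCGC, on both strands. E2f7 held TTTCCCGC on the opposite strand, beginning 198 bases before the start, and E2f3 held the same letters on the opposite strand, beginning 11 bases before the start. The second E2f3 window, chr13:29984342-29984641, held none of the letters searched, nor the CHR and CCAAT letters given below. Rbl1 held TTTCGCGC on its own strand, 18 bases before the start. E2f2 held TTTGGCGC 40 bases after its RefSeq start. That window, chr4:136172024-136172323, ends before the GENCODE start of E2f2 at 136172394, so by GENCODE the match lies upstream. So 4 of the 8 members with a window held a match, a pair that rose (E2f2 and E2f7) and a pair that fell (E2f3 and Rbl1). The same letters occurred in the windows of 300 bases of 2.6% of all 27025 genes with an entry, and in the windows of 11 of the 20 G1/S target genes with an entry. The windows of E2f1, E2f6, E2f8 and Rbl2 held none of these letters. That of E2f1, chr2:154569377-154569676, lay inside the gene as GENCODE places it (154559407 to 154569892, minus strand). The bases before the GENCODE start of E2f1 were therefore not searched. The CHR letters TTTGAA or TTCGAA, bound by the LIN54 subunit of the DREAM complex, were in the windows of E2f2, E2f3, E2f8 and Rbl2. For E2f2 they were only in a further window inside the gene, chr4:136180532-136180831. They were in the windows of 3 of the 20 G1/S target genes and of 21.7% of all genes with an entry. The letters CCAAT, the NF-Y box, were in the windows of E2f2, E2f3, E2f7 and E2f8. They were in those of 16 of the 20 G1/S target genes and of 41.1% of all genes with an entry. The members had 50.7% (Rbl2) to 78.7% (the second E2f3 window) G or C in these windows, and the shares were not adjusted for base composition. A match is a description of letters and not a binding site.

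**Figure D1:**
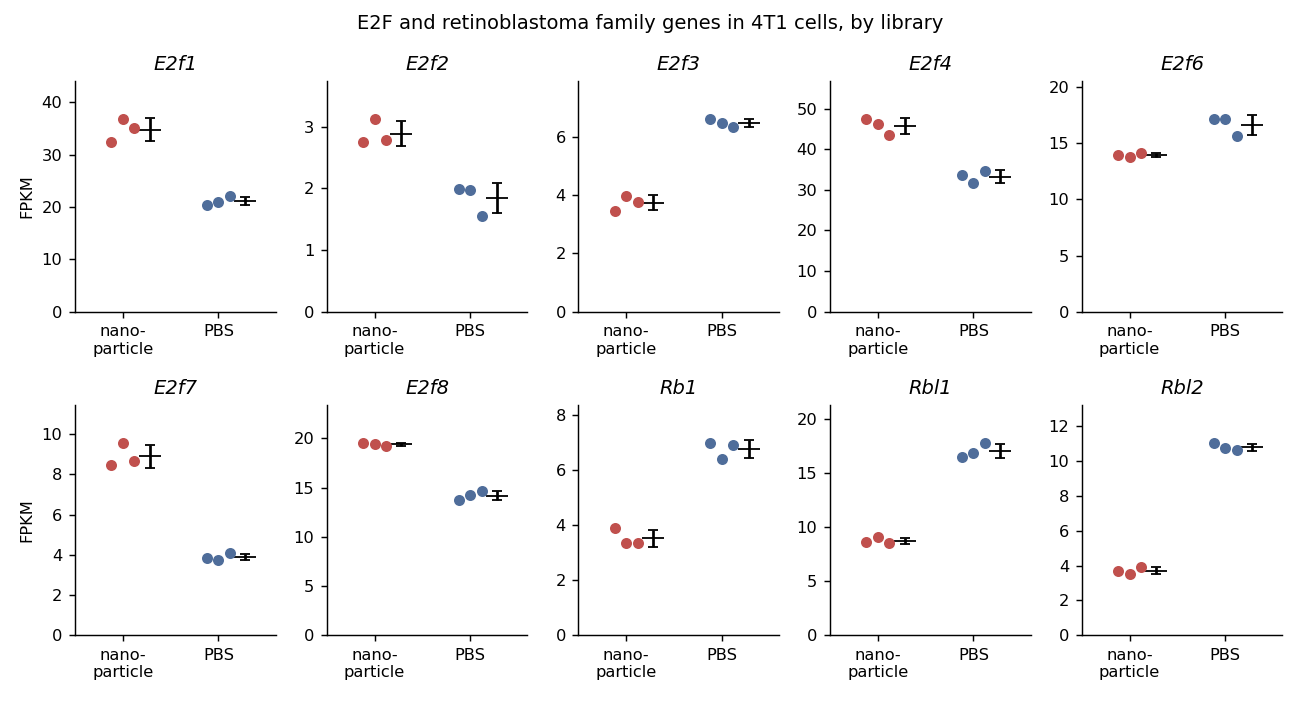
FPKM of the 10 members in each library (points; nanoparticle libraries in red, PBS libraries in blue), with the mean and SD of the 3 libraries of each group (black bar and whiskers); each panel has its own axis from 0. E2f1, E2f2, E2f4, E2f7 and E2f8 lie higher with nanoparticles, and E2f3, E2f6, Rb1, Rbl1 and Rbl2 lie lower.

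Among the activators, E2f1 and E2f2 rose and E2f3 fell. E2f1 lies on GRCm38 chromosome 2, 154559407 to 154569892. It had 32.4, 36.7 and 35.1 FPKM in nanoparticle libraries and 20.4, 21 and 22 FPKM in PBS libraries. Every nanoparticle library was above every PBS library, and the ratio of the means was 1.64 (log2 fold change 0.69 ± 0.050, standard error; limma, adjusted p = 6.06e-07). E2f2, on chromosome 4, 136172394 to 136196057, was the lowest of the 7 E2F mRNAs in both groups. It had 2.75, 3.12 and 2.79 FPKM with nanoparticles, against 1.99, 1.98 and 1.56 FPKM with PBS. The groups did not overlap, and the log2 fold change was 0.45 with a 95% interval from 0.26 to 0.64 (adjusted p = 0.000552, limma).

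E2f3, on chromosome 13, 29906575 to 29986063, had 3.46, 3.98 and 3.76 FPKM with nanoparticles and 6.59, 6.46 and 6.33 FPKM with PBS. All nanoparticle libraries were lower, with a ratio of the means of 0.578 and a log2 fold change of -0.66 ± 0.059 (standard error; limma, adjusted p = 3.26e-06). The gene is known to make the proteins E2F3a and E2F3b from separate promoters, and RefSeq had windows at both starts, but the table gives a value per gene and does not separate them. The fall of E2f3 was close to the trend of all genes of its length: with the trend of the fold change with genomic span and exonic length removed, its log2 fold change was -0.07 and did not pass (adjusted p = 0.294, limma).

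E2f4 was the most abundant member in both groups. On chromosome 8, 105297663 to 105305370, it had 47.3, 46.2 and 43.5 FPKM with nanoparticles and 33.7, 31.6 and 34.5 FPKM with PBS. All nanoparticle libraries were higher (log2 fold change 0.45 ± 0.043, standard error; limma, adjusted p = 5.74e-06). E2f6, a subunit of the polycomb complex PRC1.6, lies on chromosome 12, 16810963 to 16839742. It had 13.9, 13.8 and 14.1 FPKM with nanoparticles, against 17.1, 17.1 and 15.6 FPKM with PBS. All nanoparticle libraries were lower, with a log2 fold change of -0.24 and a 95% interval from -0.34 to -0.13 (adjusted p = 0.000818, limma). On the TPM scale E2f6 was at -0.39 and E2f4 at 0.30.

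Both atypical factors, which carry paired DNA-binding domains, bind without a DP partner and repress E2F target genes, E2f1 among them, rose. E2f7 lies on chromosome 10, 110745439 to 110787384, and had 8.48, 9.55 and 8.68 FPKM in nanoparticle libraries and 3.83, 3.77 and 4.07 FPKM in PBS libraries. The lowest nanoparticle library was above the highest PBS library, and the ratio of the means was 2.29 (log2 fold change 1.02 ± 0.060, standard error; limma, adjusted p = 1.28e-07). E2f8, on chromosome 7, 48866429 to 48881596, had 19.5, 19.4 and 19.2 FPKM with nanoparticles and 13.7, 14.2 and 14.6 FPKM with PBS. The groups did not overlap, with a ratio of the means of 1.37 (log2 fold change 0.43, adjusted p = 3.39e-06, limma). On the TPM scale E2f8 was at 0.29. GENCODE places 610 exonic bases of the opposite-strand transcript Gm2788 on those of E2f8, and 86 of 1700020G17Rik on those of E2f7. Strand use in the counting is not given in the sources at hand, so such reads cannot be told apart.

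Rbl2, which encodes p130, the pocket protein most abundant in resting cells, lies on chromosome 8, 91070057 to 91123844. It had 3.66, 3.54 and 3.91 FPKM with nanoparticles and 11, 10.7 and 10.6 FPKM with PBS. The PBS mean was 2.9 times the nanoparticle mean (log2 fold change -1.32 ± 0.052, standard error; limma, adjusted p = 7.98e-09). Rbl1, which encodes p107, is itself known as an E2F target gene in cycling cells, and lies on chromosome 2, 157145893 to 157204534. It had 8.61, 9.1 and 8.53 FPKM with nanoparticles and 16.5, 16.9 and 17.8 FPKM with PBS. All nanoparticle libraries were lower, and the ratio of the means was 0.512 (log2 fold change -0.89 ± 0.046, standard error; limma, adjusted p = 5.35e-08).

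Rb1, the retinoblastoma tumour suppressor gene, is the longest member, on chromosome 14, 73183673 to 73325822. It had 3.89, 3.35 and 3.35 FPKM in nanoparticle libraries and 6.99, 6.4 and 6.92 FPKM in PBS libraries. The groups did not overlap, with a log2 fold change of -0.78 and a 95% interval from -0.93 to -0.63 (adjusted p = 2.13e-06, limma). With the trend with span and exonic length removed, the value turned to 0.14 and did not pass (adjusted p = 0.0657, limma). Lpar6, a lysophosphatidic acid receptor gene on the opposite strand inside Rb1, shares 408 exonic bases with it in GENCODE. Lpar6 rose to 4.9 ± 0.247 FPKM with nanoparticles, against 3.2 ± 0.0328 FPKM with PBS (n = 3 each). Rcbtb2 shares 488 exonic bases with Rb1 and averaged 17.5 FPKM with nanoparticles and 18.3 FPKM with PBS, which did not pass (log2 fold change -0.06; limma, adjusted p = 0.255). Aktip, on the strand opposite to Rbl2 with 693 shared exonic bases, averaged 14 ± 0.378 FPKM with nanoparticles and 17 ± 0.254 FPKM with PBS (n = 3 each), with a log2 fold change of -0.26. Gm45464, also on the strand opposite to Rbl2, shares 892 exonic bases with it, and its level was not analysed here.

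The order of levels differed between the groups. With nanoparticles the E2F mRNAs ran, from the highest, E2f4, E2f1, E2f8, E2f6, E2f7, E2f3 and E2f2, and with PBS they ran E2f4, E2f1, E2f6, E2f8, E2f3, E2f7 and E2f2. E2f8 and E2f6 changed places, as did E2f7 and E2f3. No neighbours in either order had overlapping ranges. Rbl1 was the highest retinoblastoma family mRNA in both groups. Rbl2 and Rb1 overlapped with nanoparticles, at means of 3.7 FPKM for Rbl2 and 3.53 FPKM for Rb1, while with PBS Rbl2 was above Rb1 in every library, at 10.7 FPKM for Rbl2 and 6.77 FPKM for Rb1.

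The summed FPKM of the 7 E2F genes was 128, 133 and 127 in nanoparticle libraries and 97.3, 96 and 98.7 in PBS libraries. The summed FPKM of the 3 retinoblastoma family genes was 16.2, 16 and 15.8 with nanoparticles and 34.5, 34 and 35.3 with PBS. The E2F sum was thus 8.09 ± 0.196 times the retinoblastoma family sum with nanoparticles and 2.81 ± 0.0134 times that sum with PBS (mean ± SD, n = 3 each), a description of mRNA levels that carries no test. E2f4 and E2f1, the highest E2F mRNAs, span 7.71 kb and 10.5 kb, and the retinoblastoma family genes span 53.8 to 142 kb. Fold changes of all genes moved with span, as given below, and its part in this ratio was not tested. Within the E2F sum, E2f7 and E2f8 together held 21.9% ± 0.0545 with nanoparticles and 18.5% ± 0.458 with PBS. The activators E2f1, E2f2 and E2f3 together held 32% ± 1.53 with nanoparticles and 30.2% ± 0.452 with PBS (SD, n = 3 each). The groups overlapped for this share, at 30.2% in nanoparticle replicate 1 and 30.6% in PBS replicate 2. E2f1 held 26.9% with nanoparticles and 21.7% with PBS, and E2f3 held 2.89% with nanoparticles and 6.64% with PBS. Rbl2 held 23.2% ± 1.39 of the retinoblastoma family sum with nanoparticles and 31.1% ± 0.95 with PBS, and Rbl1 held 54.7% with nanoparticles and 49.4% with PBS.

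**Figure D2:**
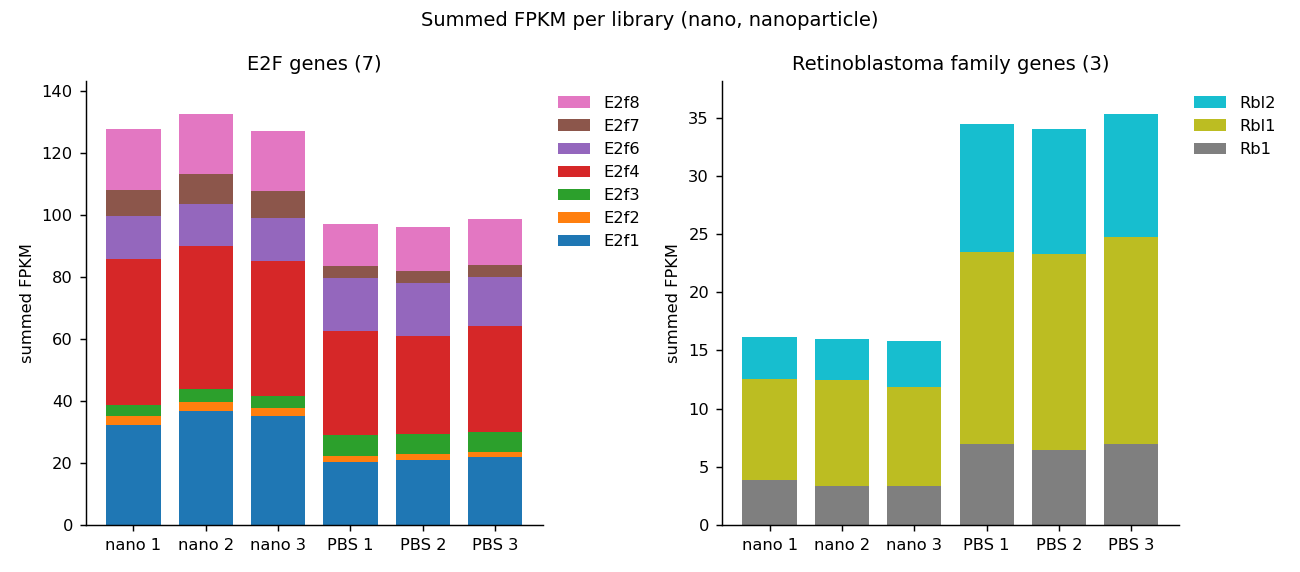
Stacked FPKM of the 7 E2F genes (left) and the 3 retinoblastoma family genes (right) in each library, nanoparticle libraries to the left of PBS libraries. The E2F stacks reach 127 to 133 FPKM with nanoparticles and 96 to 98.7 FPKM with PBS, and the retinoblastoma family stacks reach 15.8 to 16.2 FPKM with nanoparticles and 34 to 35.3 FPKM with PBS.

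Genomic span (gene start to gene end) moved with the fold changes of all genes. Of the tested genes spanning 60 kb or more, 8.75% rose and 84.1% fell, with a median log2 fold change of -0.86, and of those under 10 kb, 60.2% rose and 25.7% fell, with a median of 0.34. The members that rose span 7.71 kb (E2f4), 10.5 kb (E2f1), 15.2 kb (E2f8), 23.7 kb (E2f2) and 41.9 kb (E2f7). Those that fell span 28.8 kb (E2f6), 53.8 kb (Rbl2), 58.6 kb (Rbl1), 79.5 kb (E2f3) and 142 kb (Rb1). In the class of 30 to 60 kb, which holds E2f7, Rbl1 and Rbl2, 30.2% rose and 54.5% fell, with a median of -0.21. Among the 2123 other tested genes of this class, 83 had a higher log2 fold change than E2f7. In the same class 69 genes had a lower log2 fold change than Rbl2, and 257 a lower one than Rbl1. E2f3 and Rb1 lay near the middle of the class of 60 kb and more, with 61.5% and 54.1% of its other genes lower. E2f4 lay near the middle of the class under 10 kb, with 55.5% of its other genes lower. In the class of 10 to 30 kb the shares lower were 78.1% for E2f1, 65.9% for E2f2, 64.5% for E2f8 and 27.2% for E2f6. With the trend with span and exonic length removed, E2f7 was at 1.26, Rbl1 at -0.47 and Rbl2 at -0.93 on the log2 scale, all still called (adjusted p = 2.01e-08, 3.94e-06 and 6.44e-08, limma). E2f1 was then at 0.39, E2f2 at 0.32, E2f8 at 0.17 and E2f4 at 0.12, each still called and smaller than before, and E2f6 was at -0.26. The adjusted p of E2f4 was then 0.026 (limma), the largest among the members still called.

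**Figure D3:**
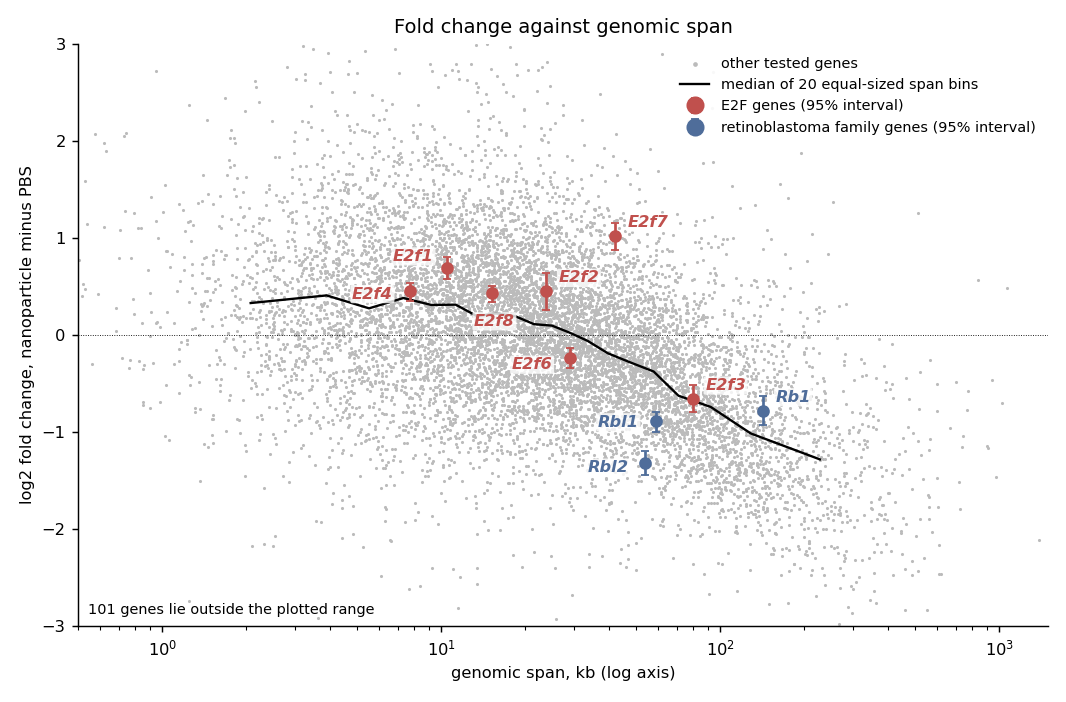
Log2 fold change (nanoparticle minus PBS) against genomic span in kb on a log axis for 10836 tested genes with a known span (grey), with E2F genes in red, retinoblastoma family genes in blue and their 95% intervals; the black line joins the medians of 20 span bins of equal size, and 101 genes lie outside the plotted range. E2f7 at 1.02 stands above the line, Rbl2 at -1.32 and Rbl1 at -0.89 stand below it, and E2f3 at -0.66 lies on it.

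E2F1 to E2F6 bind DNA as dimers with a DP protein, and the genes of the partners went in opposite directions. Tfdp1 rose to 134 ± 3.67 FPKM with nanoparticles, against 80.7 ± 0.828 FPKM with PBS (log2 fold change 0.72, adjusted p = 7.06e-09, limma). Tfdp2, which spans 127 kb, fell to 4.19 ± 0.554 FPKM with nanoparticles, against 16.4 ± 1.25 FPKM with PBS (log2 fold change -1.75, adjusted p = 4.67e-08, limma). With the span and length trend removed, its value was -0.82. Of 8 partners of the DREAM and MMB complexes, 7 rose and 1 fell, beside 40.5% and 46.0% of all tested genes. The DREAM complex joins p107 or p130 and E2F4 to the MuvB core and represses cell cycle genes in resting cells, and the same core works with B-MYB (Mybl2) and FOXM1 later in the cycle. The core genes Lin9, Lin37, Lin52, Lin54 and Rbbp4 rose by 0.74, 0.40, 0.44, 0.27 and 0.37 on the log2 scale, Mybl2 by 0.64 and Foxm1 by 0.77. The rise of Lin54 did not pass on the TPM scale (0.14), and that of Lin37 was lost with the span and length trend removed (-0.02). With that trend removed Lin52 was at 1.13 and Foxm1 at 0.50, and on the TPM scale Rbbp4 was at 0.22. Dyrk1a, the kinase that starts DREAM assembly by phosphorylating LIN52, fell to 4.35 ± 0.205 FPKM with nanoparticles, against 11.8 ± 0.104 FPKM with PBS. It spans 126 kb, and removing the span and length trend took its log2 fold change of -1.26 to -0.37.

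Of 8 genes for the G1 cyclins and kinases that phosphorylate pocket proteins, 6 rose and 2 fell, beside 40.5% and 46.0% of all tested genes. The cyclin E genes, themselves E2F targets, rose most. Ccne1 reached 9.76 ± 0.973 FPKM with nanoparticles, against 2.19 ± 0.268 FPKM with PBS, and Ccne2 reached 25.2 ± 1.2 FPKM, against 5.31 ± 0.449 FPKM with PBS. Their kinase gene Cdk2 rose by 0.71, Ccnd3 by 0.69, Ccnd2 by 0.35 and Cdk4 by 0.34 on the log2 scale, the rise of Cdk4 being lost with the span and length trend removed (-0.01). With that trend removed Cdk2 was at 0.40, Ccnd3 at 1.42 and Ccnd1 at -0.56, and on the TPM scale Ccnd2 was at 0.21, Cdk4 at 0.18 and Ccnd1 at -0.40. Ccnd1 had a log2 fold change of -0.25, at 196 ± 1.8 FPKM with nanoparticles and 233 ± 3.13 FPKM with PBS, and Cdk6, which spans 190 kb, fell to 4.34 ± 0.13 FPKM with nanoparticles, against 14.2 ± 0.432 FPKM with PBS. The log2 fold change of Cdk6 was -1.51, and removing the span and length trend left -0.38. Of 7 CDK inhibitor genes 4 were tested, of which 2 rose and 2 fell. Cdkn1a (p21) rose by 3.60 and Cdkn2d by 0.19 on the log2 scale, the second of which did not pass on the TPM scale (0.05) or without a filter (0.19, adjusted p = 0.0535, limma) and turned to -0.21 with the span and length trend removed. Cdkn1b (p27) fell to 18.6 ± 0.734 FPKM with nanoparticles, against 34.3 ± 0.643 FPKM with PBS, and Cdkn2c fell to 20.8 ± 1 FPKM, against 62.6 ± 2.07 FPKM with PBS. Removing the span and length trend took Cdkn1b from -0.85 to -1.20 and Cdkn2c from -1.54 to -1.87 on the log2 scale. Cdkn2a, with a mean of 0.0236 FPKM with nanoparticles and 0 with PBS, Cdkn2b, listed at 0 in all 6 libraries, and Cdkn1c, with means of 0.255 FPKM with nanoparticles and 0.0346 FPKM with PBS, were not tested.

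Of 24 G1/S genes known as E2F targets, 21 rose, 2 fell and 1 did not pass. Their median log2 fold change was 0.88, beside -0.06 over all tested genes, of which 40.5% rose and 46.0% fell. All but the 2 that fell span 35.4 kb or less. The medians of all tested genes under 10 kb, of 10 to 30 kb and of 30 to 60 kb were 0.34, 0.17 and -0.21. Among those that rose, the smallest adjusted p were those of Cdc6 (log2 fold change 2.20), Rrm2 (1.70), Mcm3 (1.31) and Pcna (1.18). With the span and length trend removed, Cdc6 was at 1.95, Rrm2 at 1.37, Mcm3 at 1.07 and Pcna at 0.83. Pcna, the sliding clamp of replication, averaged 426 ± 6.55 FPKM with nanoparticles and 187 ± 4.42 FPKM with PBS, and Mcm3, a subunit of the replicative helicase, averaged 210 ± 3.59 FPKM with nanoparticles and 84.3 ± 0.824 FPKM with PBS. The 3 genes that did not rise are named here after their values were seen. Pola1, a subunit of DNA polymerase alpha, spans 327 kb and fell to 3.42 ± 0.103 FPKM with nanoparticles, against 15 ± 0.367 FPKM with PBS (log2 fold change -1.85, adjusted p = 5.41e-10, limma). Ezh2, the polycomb methyltransferase, fell to 17.6 FPKM with nanoparticles, against 29.7 FPKM with PBS, and Mcm6 averaged 103 FPKM with nanoparticles and 98.9 FPKM with PBS (log2 fold change 0.06, adjusted p = 0.0757, limma). Removing the span and length trend left Pola1 at -0.50 and Ezh2, whose log2 fold change was -0.73, at -0.23, both still called. Mcm6 passed at 0.12 with median-of-ratios scaling, at 0.08 without PBS replicate 3 and, in the other direction, at -0.09 on the TPM scale (adjusted p = 0.00158, 0.0367 and 0.0122, limma). Of 5 apoptotic target genes of E2F1, 3 were tested, of which 1 rose and 2 fell. Bbc3 (PUMA) fell to 3.54 ± 0.507 FPKM with nanoparticles, against 9.42 ± 0.238 FPKM with PBS, and Apaf1 fell by 0.71 on the log2 scale. Apaf1 spans 93.5 kb, and its value was 0.02 with the span and length trend removed. Removing that trend took Bbc3 from -1.20 to -1.52 on the log2 scale. Bcl2l11 (BIM) rose by 0.22, a call that was lost on the TPM scale (0.07), and was at 0.36 with the span and length trend removed. Trp73, at 0.0693 FPKM with nanoparticles and 0.0207 FPKM with PBS, and Pmaip1, at 0.0643 FPKM with nanoparticles and 0 with PBS, were not tested.

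All 4 genes of E2F turnover rose. The counts of the lists here stand beside 40.5% of all tested genes that rose and 46.0% that fell. Skp2, a ubiquitin ligase subunit known to bind E2F1, rose by 0.78, Ccnf (cyclin F) by 0.31, Fzr1, an activator of the anaphase-promoting complex, by 0.25 and Fbxo5, its inhibitor EMI1, by 0.85 on the log2 scale, the rise of Fzr1 being lost with the span and length trend removed (-0.04). With that trend removed Fbxo5 was at 0.49, and on the TPM scale Ccnf was at 0.17 and Fzr1 at 0.11. Among 11 partners of E2F6 in PRC1.6, 3 rose, 7 fell and 1 did not pass, with L3mbtl2 at 1.20, Max at 0.56, Ehmt2 at -0.53 and Ehmt1 at -1.57 on the log2 scale. Ehmt1 spans 130 kb, and its value was -0.67 with the span and length trend removed. None of 5 germline genes known as E2F6 targets reached the level tested: Smc1b averaged 0.353 ± 0.0668 FPKM with nanoparticles and 0.00268 ± 0.00465 FPKM with PBS, Stag3 averaged 0.0805 FPKM with nanoparticles and 0.0338 FPKM with PBS, and Slc25a31, Tuba3a and Tuba3b were at 0.122, 0.115 and 0.116 FPKM with nanoparticles and listed at 0 in every PBS library. These low values stand beside the larger number of genes above 0 in nanoparticle libraries, whose part was not tested. Of 9 corepressors of the RB family, 4 rose and 5 fell. Suv39h1, a histone H3 lysine methyltransferase, rose by 1.15, Hdac1 by 0.69 and Rbbp7 by 0.47 on the log2 scale, and Kdm5a, first known as an RB-binding protein, fell by 0.64, with 0.04 once the span and length trend was removed. Rbbp7 was at 0.26 with that trend removed and at 0.31 on the TPM scale.

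**Figure D4:**
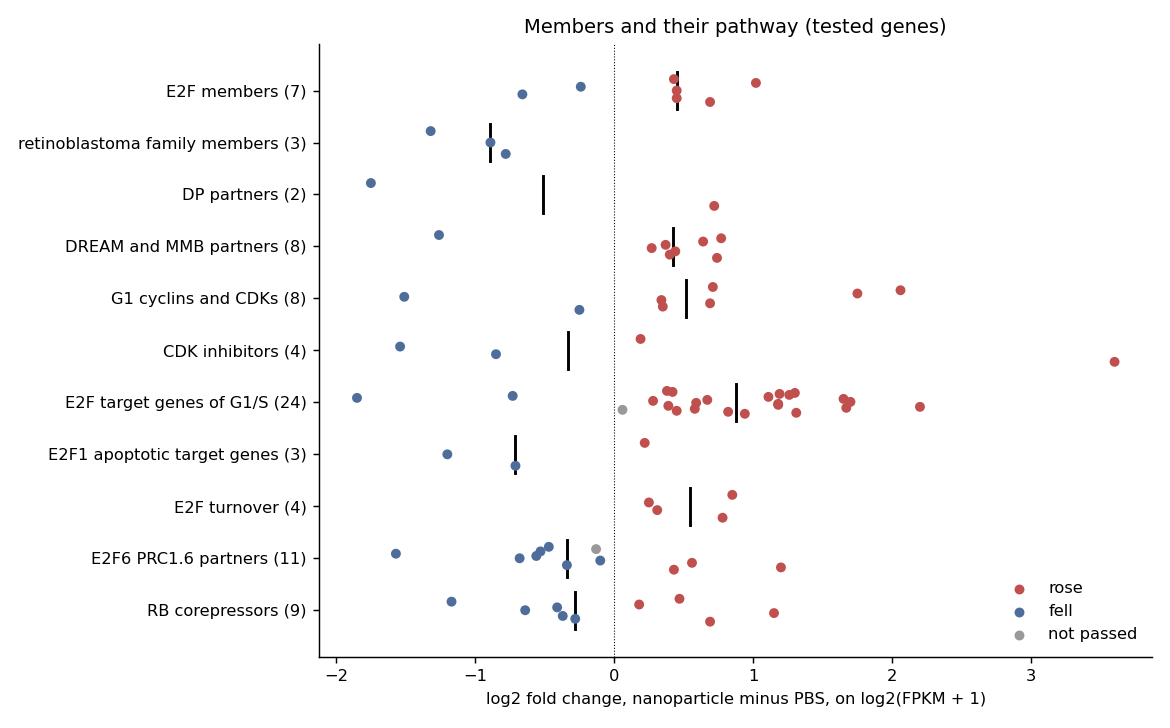
Log2 fold change (nanoparticle minus PBS, on log2(FPKM + 1)) of the tested genes of each list, with the number tested in parentheses; red points rose, blue points fell, grey points did not pass, and the black bar is the median of the list. The 3 retinoblastoma family genes all lie to the left of 0, and 21 of the 24 G1/S target genes are red.

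The genes with a pattern most like that of E2f7 over the 6 libraries were Icmt, Dll4 and Nup85, at distances of 0.0583, 0.0728 and 0.0779, and those most like Rbl2 were Dag1, Emp2 and Scarb2, at 0.0607, 0.0748 and 0.0772. The measure was the Euclidean distance of log2(FPKM + 1) values after the mean of each gene was subtracted, among 8334 genes. With only 2 groups, it mostly reflects the size of the difference between them: Icmt averaged 24.3 ± 1.02 FPKM with nanoparticles and 11.6 ± 0.14 FPKM with PBS, and Dag1 averaged 26.1 ± 0.963 FPKM with nanoparticles and 65.5 ± 0.481 FPKM with PBS (n = 3 each).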

How the data were processed

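The authors deposited a table of FPKM values, a unit inferred from the values, since the header gives none. STAR and featureCounts, with GRCm38 and mm10, are named without versions per the submitters' processing notes; the program that computed the FPKM values is not given in the sources at hand. The depth of the libraries is unknown, so no counting interval is given. The 701 features without a gene identifier made up 0.631% to 0.67% of each library's sum and stayed out.

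Genes reaching 1 FPKM in at least 3 libraries were tested with limma 3.58.1 (R 4.3.3, statmod 1.5.0; trend and robust settings) on log2(FPKM + 1), without a replicate block. The test was also run on simulated data in which few genes changed. Since 86.4% of tested genes were called here, that check does not cover so wide a change. Tables and figures used Python 3.11.15, numpy 2.4.6, pandas 2.3.3 and matplotlib 3.10.9. Positions, span and exonic length are from GENCODE M21, matched by gene identifier. Members and lists were chosen with earlier results of these data known. Some listed genes are not reported here. Named were all members, all genes of lists of up to 8, and of longer lists the 4 with the smallest adjusted p. For likeness, the 3 nearest genes averaging 5 FPKM or more are given for the risen and the fallen member with the smallest adjusted p. Alternatives were another pseudocount, filters, thresholds and scalings, a replicate block, removal of the span and length trend (splines) and each library left out.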

Additional observations from a re-analysis of the deposited data

How the results depend on the processing

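All 10 members kept direction and call with no filter on low values, a pseudocount of 0.1, an adjusted p under 0.01, TPM and median-of-ratios scaling, a replicate block and each library left out, as did the 9 members that passed a filter at 5 FPKM; E2f2 was below it. The exceptions came with the span and length trend removed (E2f3 -0.07, Rb1 0.14); the cause was not tested. On the TPM scale the median of all tested genes was -0.21, beside -0.06. The FPKM of all features summed to 468387 to 472870 in nanoparticle libraries and 421544 to 425231 in PBS libraries. Without a filter, 7856 genes rose, beside 4395. Deviations of same-numbered samples correlated at -0.0428 to 0.0411, beside -0.0768 to 0.0943 for samples of unlike number. Pairing with little shared variation would look the same, so this check cannot decide whether the numbers pair the samples. With the replicate block 4389 genes rose and 4982 fell, with E2f7 at 1.02 and Rbl2 at -1.32. With each library left out, 4077 to 4328 genes rose and 4663 to 4947 fell. Of 41 named pathway genes, Apaf1 (0.02), Cdk4 (-0.01), Cdkn2d (-0.21), Fzr1 (-0.04), Kdm5a (0.04) and Lin37 (-0.02) turned sign with the span and length trend removed. Mcm6, named after its values were seen, turned to -0.09 on the TPM scale. After adding 1 FPKM to each member, the E2F sum was 7.18 times the retinoblastoma family sum with nanoparticles and 2.78 times with PBS. E2f7 and E2f8 then held 22.2% of the E2F sum with nanoparticles and 19.2% with PBS, and E2f1, E2f2 and E2f3 held 31.1% with PBS. Of the retinoblastoma family sum, Rb1 held 23.9% with nanoparticles and 20.7% with PBS, Rbl1 51.3% with nanoparticles and 48.1% with PBS, and Rbl2 24.8% with nanoparticles.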
